A study of Mus musculus with 4 samples.

Results

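The regions described here are H3K27ac peaks that were present in G1E cells and absent from G1E-ER4+E2 cells. H3K27ac, the acetylation of lysine 27 on histone H3, was mapped by ChIP-seq, in which an antibody recovers the chromatin fragments that carry the modification. G1E is a mouse erythroid line with no functional GATA1, and the G1E samples were untreated. G1E-ER4 is a subline of G1E that carries GATA1 fused to the ligand-binding part of the estrogen receptor, and its samples were treated with 10 nM estradiol for 24 h, hence G1E-ER4+E2. Each cell line had 2 replicates, and nothing in the labels says whether these were separate cultures. Both lines share the loss of the endogenous GATA1 and the same origin. No sample of untreated G1E-ER4 cells was analysed here, so the effects of the estradiol, of the hybrid protein and of the subline cannot be told apart.

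A peak was counted as lost when it was in the pooled list of G1E, shared at least 1 bp with a peak in the list of each G1E replicate, and shared no base with any peak in the 3 lists of G1E-ER4+E2 (replicate 1, replicate 2 and pooled). The members were thus selected on the presence and absence of the peaks themselves, and their loss is the rule and not a result. Of the 24332 pooled G1E peaks, 18981 were in both G1E replicates and are called reproducible below. Of these, 4308 were lost and 14673 were kept, so 22.7% of the reproducible peaks were lost. Over both cell lines the pooled lists held 50716 peaks.

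H3K27ac is deposited by the coactivators EP300 and CREBBP and removed by histone deacetylases, and it marks active promoters and active enhancers. Erythroid progenitors depend on GATA2, and as they mature GATA1 takes over many of its sites, partly together with TAL1, a transcription factor that acts in complexes with LMO2 and LDB1. At many genes of the progenitor state this exchange accompanies silencing, and at erythroid genes it accompanies activation. Peaks that disappear between the cell lines may include regulatory regions of the progenitor state, which was not tested. A peak list alone does not say which gene a region serves. No annotation of the mm9 build was used here, so a lost peak is tied to a gene name only through DNA segments that the study tested for enhancer activity and named after genes.

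Very few of the DNA segments that the study compiled from enhancer assays, negative controls included, lay in lost peaks. Of the 273 tested segments, 150 lay in a reproducible G1E peak and 4 of these in a lost one (TAL1_1515, TAL1_1578, GHP219 and Zfpm1NC4). That is 2.67%, where 22.7% of all reproducible peaks were lost. The first share counts segments and the second counts peaks, and a wide peak can hold more segments. Lost peaks covered 15.7 Mb and kept peaks 111.7 Mb, so the 2 shares are not directly comparable. Of the 70 segments tested because TAL1 occupied them in G1E-ER4+E2 cells (TAL1 OSs), 55 lay in reproducible G1E peaks and 2 in lost peaks. Of the 66 TAL1 OSs that elements tested in transgenic mice covered at least in part, 56 lay in reproducible peaks and 1 in a lost peak. The TAL1 OSs were chosen for binding in the cells from which lost peaks are absent, and segments of 1 locus often share a peak, so these shares describe how the segments were chosen as well as the peaks.

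Both TAL1 OSs in lost peaks are on chromosome 15, and the PCR primers with which the study amplified them are shown because they define the DNA of these TAL1-bound regions. The primers are written 5′ to 3′ in lower case.
TAL1_1515 forward: ctggtctgtaggtggtgaaag
TAL1_1515 reverse: cattgagcaagcaaactggag
TAL1_1578 forward: aacttctgctggagccacttacca
TAL1_1578 reverse: atacagtgagacatggagcaccca

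TAL1_1515 spans chr15:8711604-8712036 on mm9, which is 433 bp. It lay inside a lost peak of 9800 bp at chr15:8710601-8720400, near its left end, with 1003 bp of the peak before the segment and 8364 bp after it. The enrichment of this peak, the fold by which ChIP signal exceeded the peak caller's background, was 8.34 in G1E replicate 1, 10.4 in replicate 2 and 9.60 in the pooled list. The replicates covered 95.9% and 100% of it, so the region was acetylated in both G1E samples over nearly the same bases. The nearest peak of any G1E-ER4+E2 list was 202.6 kb away. The next 2 reproducible G1E peaks on the right were lost as well. One of 1800 bp (chr15:8771201-8773000) had an enrichment of 7.07 and began 50.8 kb from the peak over TAL1_1515. The other, of 4800 bp (chr15:8844801-8849600), had an enrichment of 15.0 and began 124.4 kb from it. These flanking peaks were named after their values were seen.

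TAL1_1578, at chr15:66657521-66658263, spans 743 bp and lay in the middle of a lost peak of 4600 bp (chr15:66655601-66660200). The enrichment of the peak was 6.51 in replicate 1, 8.99 in replicate 2 and 5.90 in the pooled list, higher than that of 50.4% of the pooled peaks. The nearest G1E-ER4+E2 peak was 202 kb away. A second lost peak, of 10200 bp, ended 3.2 kb before it, at chr15:66642201-66652400, with an enrichment of 5.61, and it too was named after its values were seen. Around both TAL1 OSs the G1E-ER4+E2 lists were thus empty over a long distance on either side. Both OSs were tested because TAL1 had been mapped to them in G1E-ER4+E2 cells.

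The other tested segments in lost peaks carried no TAL1 OS name. Zfpm1NC4 (chr8:124632866-124633128) belongs to the set with NC in the segment's name and was named for Zfpm1, which encodes FOG1, the cofactor that binds GATA1. It lay at the left edge of a lost peak of 7000 bp, chr8:124632801-124639800, with enrichments of 7.69 and 8.20 in replicates 1 and 2 and 7.79 in the pooled list. GHP219 (chr7:118020600-118021198) lay at the left edge of a lost peak of 6000 bp, chr7:118020201-118026200, with enrichments of 3.45, 2.85 and 3.38. Neither region had a G1E-ER4+E2 peak close by, the nearest being 48 kb and 31 kb away.

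The Zfpm1 locus showed lost peaks beside domains that both cell lines shared. All 27 of its tested segments had a lost peak within 100 kb, but 24 were in a pooled G1E peak and 23 in a pooled G1E-ER4+E2 peak. Besides the peak over Zfpm1NC4, a peak of 1600 bp at chr8:124765401-124767000 was lost. Its enrichment was 2.72 in the pooled list, 2.96 in replicate 1 and 2.78 in replicate 2, and it lay 2.944 kb from Zfpm1NC3 and 29 kb from the nearest G1E-ER4+E2 peak. Another lost peak, chr8:124983401-124990000, had a pooled enrichment of 2.93 and lay 6.8 kb from a G1E-ER4+E2 peak. The lost peaks of the locus, of 7000, 1600 and 6600 bp, were therefore of low to middle enrichment beside the peak of 22.5 that covered most of the tested segments in G1E.

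At Gata2, which encodes the GATA factor of the progenitor state, 8 of the 9 tested segments had the same lost peak within 100 kb, and none lay in it. That peak, chr6:88072601-88076000, had enrichments of 1.65 and 1.86 in the G1E replicates and 1.62 in the pooled list, where 3.39% of the peaks were lower, and it lay 1.2 kb from a G1E-ER4+E2 peak. Of the 9 segments, 6 were in a pooled G1E peak and 7 in a pooled G1E-ER4+E2 peak. At Vav2, which encodes a guanine nucleotide exchange factor of blood cells, a lost peak of 2600 bp, chr2:27281401-27284000, lay 9.121 kb from Vav2R6, with a pooled enrichment of 3.54. A second lost peak at Vav2, chr2:27336801-27340000, was 3200 bp wide with a pooled enrichment of 2.74, and it was named after its values were seen. No lost peak was within 100 kb of the 14 Hipk2, 3 Btg2, 2 Hebp1 or 4 Alas2 segments. Of these segments, 3, 2, 1 and 2 in that order lay in a pooled G1E peak. Alas2 encodes the enzyme that starts heme synthesis in erythroid cells.

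**Figure D1:**
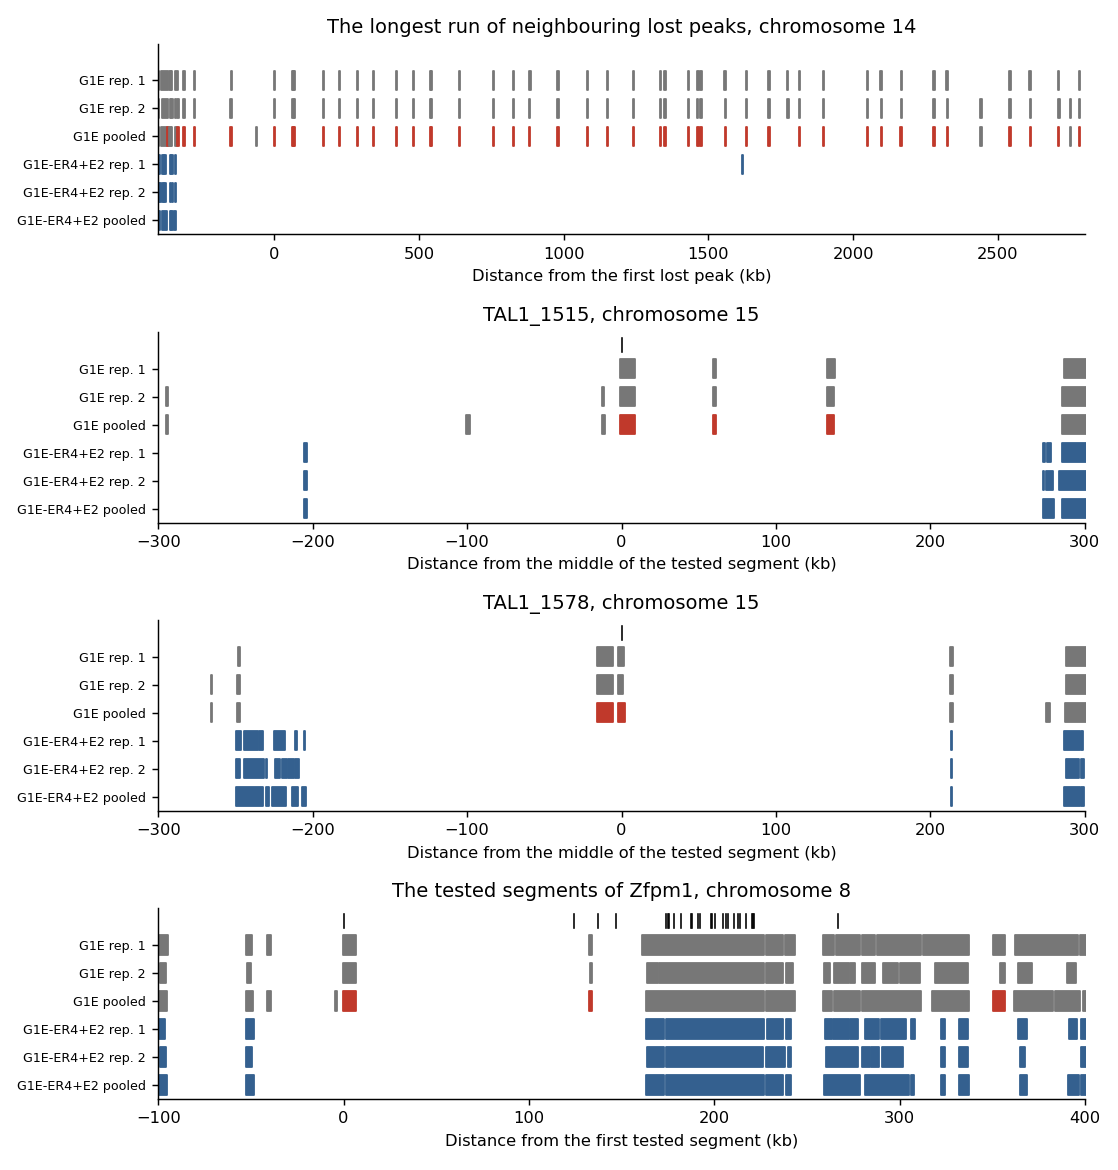
Peaks in the 6 lists (rows) around the longest run of neighbouring lost peaks, TAL1_1515, TAL1_1578 and the Zfpm1 segments, plotted against distance in kb. Red bars are lost peaks, grey bars other G1E peaks, blue bars G1E-ER4+E2 peaks and black ticks tested segments; the blue rows are empty beside both TAL1 OSs, and 1 blue bar of replicate 1 lies within the run.

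Across all 273 tested segments, 15 lay in a lost peak or within 10 kb of one and 119 within 100 kb, 1 segment being listed under the same name on 2 lines. Segments of 1 locus were counted separately, among them 27 of Zfpm1 and 8 of Gata2. How often other G1E peaks lay this near a lost peak was not counted, so 119 cannot be called many or few. These 119 pointed to 68 different lost peaks. Their pooled enrichment ran from 1.40, at chr14:118614401-118621200, to 13.4, at chr7:135753601-135760400. The lost peak closest to a TAL1 OS without covering it was chr5:85243401-85246400, 2.352 kb from TAL1_3467. Its enrichment was 7.50, and its nearest G1E-ER4+E2 peak was 1196.8 kb away. TAL1_3467 itself was in no peak of any of the 6 lists. The lost peak nearest to TAL1_4652, chr9:45603401-45607800, was 3.56 kb away with an enrichment of 2.58. It was covered to 100% in replicate 1, where it was part of a peak of 14600 bp, but to 27.3% in replicate 2.

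The lost peaks covered 15.7 Mb, which is 11.2% of the 139.9 Mb in the pooled G1E list. They were narrow. Their median width was 2800 bp, with quartiles of 1800 and 4400 bp and a range of 200 to 47400 bp, whereas kept peaks had a median of 5400 bp and quartiles of 3200 and 9200 bp. Peaks of up to 2000 bp made up 30.9% of the lost and 9.42% of the kept peaks. Peaks of 10 kb or more numbered 155 among the lost (3.60%) and 3249 among the kept (22.1%). A wide peak has more bases with which to meet a G1E-ER4+E2 peak, so the rule itself favours narrow peaks, and the widths are given as a description.

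In enrichment the lost peaks lay mostly in the lower and middle parts of the pooled list, which also holds peaks not in both replicates. The median was 4.92, with quartiles of 3.37 and 7.80 and a range of 1.21 to 48.7, against a median of 9.05 for kept peaks and 5.82 for all pooled G1E peaks. The median lost peak ranked above 44.4% of the pooled list, and the median kept peak above 66.2%. Of the lost peaks, 60.1% were below the median of the list and 153 (3.55%) were in its top 10%, where 15.4% of the kept peaks lay.

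**Figure D2:**
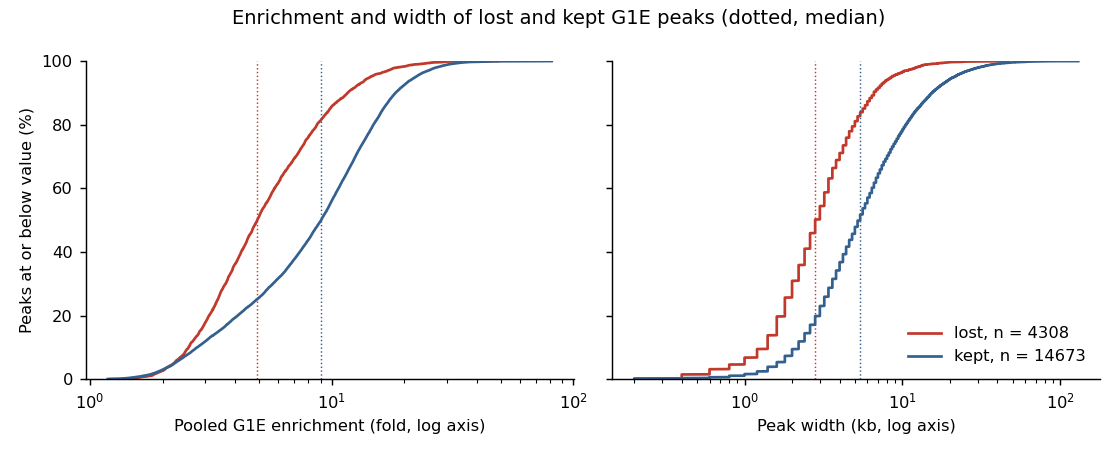
Cumulative share (%) of 4308 lost (red) and 14673 kept (blue) peaks against pooled G1E enrichment (fold, log axis) and peak width (kb, log axis), with dotted lines at the medians. The red curves lie to the left of the blue ones over most of their range, with medians of 4.92 against 9.05 and 2800 against 5400 bp.

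When the reproducible peaks were divided by enrichment into 10 bins of equal size, the share lost was not highest in the weakest bin. It was 28.3% in bin 1, 40.5% in bin 2 and 41.5% in bin 3, and then fell with each bin, to 6.74% in bin 9 and 6.32% in bin 10. Peaks of bin 1 were wider, with a median of 4000 bp, than those of bins 2 and 3, with 3200 bp each, and the part of width in the lower share of bin 1 was not tested. By width the share fell in every step, from 51.0% in the narrowest bin (up to 1800 bp) to 2.63% in the widest (from 13800 bp). Width kept its gradient within 3 classes of enrichment. In the lowest class (enrichment up to 5.27) the share lost was 48.4% among peaks of up to 3200 bp and 14.6% among those from 6400 bp. In the highest class (from 10.8) it was 17.4% and 4.64%.

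The G1E replicates ranked the lost peaks alike. The enrichment in replicate 1 had a median of 4.69 (quartiles of 3.20 and 7.50), and that in replicate 2 a median of 5.70 (quartiles of 3.80 and 9.20). Across the 4308 peaks, which share libraries and are not independent, Pearson's r between the log2 enrichments was 0.85 and Spearman's rho was 0.84. For the kept peaks r was 0.90. The value in replicate 2 was the higher for 76.4% of the lost and 77.6% of the kept peaks, so the offset between replicates was about that of the list as a whole. Replicate 1 covered a median of 94.1% of the bases of a lost peak and replicate 2 a median of 88.9%. In 359 lost peaks at least one replicate covered less than 50%.

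**Figure D3:**
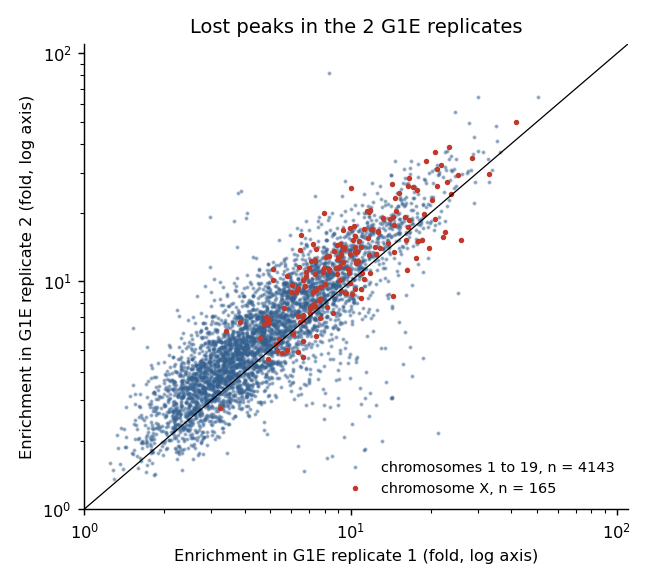
Enrichment of each of the 4308 lost peaks in G1E replicate 1 (horizontal) against replicate 2 (vertical), both as fold on log axes, with chromosome X in red. Points follow the diagonal and lie above it for 76.4% of peaks, and those of chromosome X sit towards the upper right.

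Few lost peaks lay at the edge of a called G1E-ER4+E2 peak, while signal below the caller's threshold was not measured. Beside the 4308 peaks found in none of the 3 G1E-ER4+E2 lists, 13585 reproducible peaks were in all 3, and 1088 (201 in the pooled list alone, 71 and 74 in 1 replicate alone, 292 and 410 in the pooled list and 1 replicate, 40 in both replicates alone) were in some of them. These 1088 had a median width of 3400 bp and a median enrichment of 4.51, close to the lost peaks. Just inside the rule, 16 lost peaks touched a G1E-ER4+E2 peak without sharing a base, and 34 lay within 200 bp of one. Just outside it, 25 kept peaks shared no more than 200 bp with any G1E-ER4+E2 list. For 105 lost peaks (2.44%) a G1E replicate peak over the region reached beyond it into a G1E-ER4+E2 peak. For the other 4203 the supporting replicate peaks were free of G1E-ER4+E2 peaks too.

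Against these numbers stands the disagreement between replicates. Of the peaks of G1E replicate 1, 7.46% shared no base with replicate 2, and of those of replicate 2, 12.0% shared none with replicate 1. Between G1E-ER4+E2 replicates the shares were 13.5% and 9.15%. Between the cell lines they were larger. From 25% to 31.2% of the peaks of a G1E replicate were absent from a G1E-ER4+E2 list. In the other direction, from 38.4% to 45.3% of the peaks of a G1E-ER4+E2 replicate were absent from a G1E list. With each G1E replicate list taken alone, 5117 peaks of replicate 1 (23.7%) and 6304 of replicate 2 (26.9%) were absent from all G1E-ER4+E2 lists, a spread of 2.22 percentage points (SD, n = 2). The G1E-ER4+E2 lists were the longer, with 29087, 26740 and 26384 peaks, and covered 161 to 201 Mb, against 21557, 23451 and 24332 peaks and 113 to 140 Mb in G1E. Their enrichments were lower, with medians of 2.80 to 3.59 against 5.82 to 7.76. The study reported more H3K27ac peaks for G1E-ER4+E2 cells than any of the lists used here holds. Whether the lost peaks are absent from that larger set as well was not tested. Sequencing depth cannot be read from peak lists, and a region below the caller's threshold cannot be told from one with no acetylation. In bulk chromatin, acetylation in fewer cells and less acetylation per cell cannot be told apart either.

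The lost peak with the highest enrichment was chr10:43196601-43199000, 2400 bp wide. Its enrichment was 50.5 in replicate 1, 64.5 in replicate 2 and 48.7 in the pooled list, above 99.9% of the peaks. It lay 0.8 kb from a peak in each G1E-ER4+E2 list and 0.8 kb from a kept G1E peak, so it bordered acetylation that both cell lines had. The second, chrX:7246001-7253600, was different. It was 7600 bp wide, with enrichments of 41.8, 50.2 and 42.0 and no G1E-ER4+E2 peak within 17.4 kb. The third, chr7:111462801-111465000, had enrichments of 35.3, 48.2 and 38.3 and a G1E-ER4+E2 peak 18.2 kb away.

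A pair among the 10 strongest lost peaks, each 1000 bp wide, lay on chromosome 14. At chr14:26746401-26747400 the enrichment was 36.4 in replicate 1, 37.1 in replicate 2 and 37.2 in the pooled list, with the nearest G1E-ER4+E2 peak 230.6 kb away. At chr14:27025801-27026800 it was 32.7, 34.3 and 29.7, and the distance was 132.4 kb. The widest among the 10, chr4:149372001-149387200, measured 15.2 kb, with enrichments of 35.5, 41.2 and 35.6 and the nearest G1E-ER4+E2 peak at 35.2 kb. Both replicates thus placed these regions in the upper tail of G1E acetylation, and none of the 3 had a G1E-ER4+E2 peak within 35 kb.

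The remaining strong peaks had pooled enrichments from 29.9 to 32.7. They were chrX:142663801-142669600 (5800 bp), chr2:10284001-10288200 (4200 bp), chr2:83834001-83835000 (1000 bp) and chr4:43676801-43677200 (400 bp). Their distances to a G1E-ER4+E2 peak were 187.4, 5.8, 14.4 and 3.6 kb in that order. Among the 10 strongest, 3 therefore had a G1E-ER4+E2 peak within 10 kb and 3 had none within 100 kb. Of all lost peaks, 29.5% and 24.0% did, so the strongest did not stand out in this.

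The widest lost peaks were domains rather than single sites. The widest, chr11:117166401-117213800, spanned 47.4 kb with a pooled enrichment of 16.2. Replicate 1 had 2 peaks over 95.8% of it and replicate 2 had 4 peaks over 89.5%, and G1E-ER4+E2 cells had none within 159.4 kb. The domain chr6:143776601-143823800 spanned 47.2 kb, with enrichments of 12.5 and 24.3 in the replicates and 13.2 in the pooled list, and its nearest G1E-ER4+E2 peak was 457.4 kb away. Both of these are stretches of G1E peaks with no called G1E-ER4+E2 peak over a long distance.

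Of the other wide peaks, chr4:89119801-89160800 (41.0 kb, enrichment 15.1) lay within a replicate 1 peak of 74600 bp and had a G1E-ER4+E2 peak 5 kb away. The peak at chr11:33944801-33975000 (30.2 kb, enrichment 12.5) was called with the same width of 30200 bp in both replicates, and its nearest G1E-ER4+E2 peak was 35 kb away. The fifth, chr1:153007201-153037000 (29.8 kb, enrichment 5.43), was covered to 16.1% in replicate 1 and to 90.6% in replicate 2, with a G1E-ER4+E2 peak at 0.6 kb. Its width thus came from replicate 2 and the pooled list.

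Lost peaks were found on every chromosome of the G1E lists, from 117 on chromosome 19 to 309 on chromosome 2. As a share of reproducible peaks they ran from 15.9% on chromosome 12 (120 of 757) to 29.5% on chromosome X (165 of 559), around the 22.7% of all. Chromosome 14 followed with 29.1% (209 of 717), or 24.5% (165 of 673) without a single stretch described below, which was delimited by its lack of G1E-ER4+E2 peaks. Peaks gained in G1E-ER4+E2 cells, by the same rule with the cell lines exchanged, numbered 6332 of 20691 reproducible G1E-ER4+E2 peaks, or 30.6%. Chromosome 12, with the lowest share lost, had the highest share gained, 42.8%, and chromosomes 8 and X, with 27.5% and 29.5% lost, had the lowest shares gained, 22.4% and 22.7%. Other chromosomes went the other way, with 29.1% lost and 33.8% gained on chromosome 14, 27.3% and 31.4% on chromosome 18, 19% and 27.9% on chromosome 7 and 18.5% and 25.9% on chromosome 19. Lost and gained peaks come from the same 6 lists, so these shares are set side by side only.

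**Figure D4:**
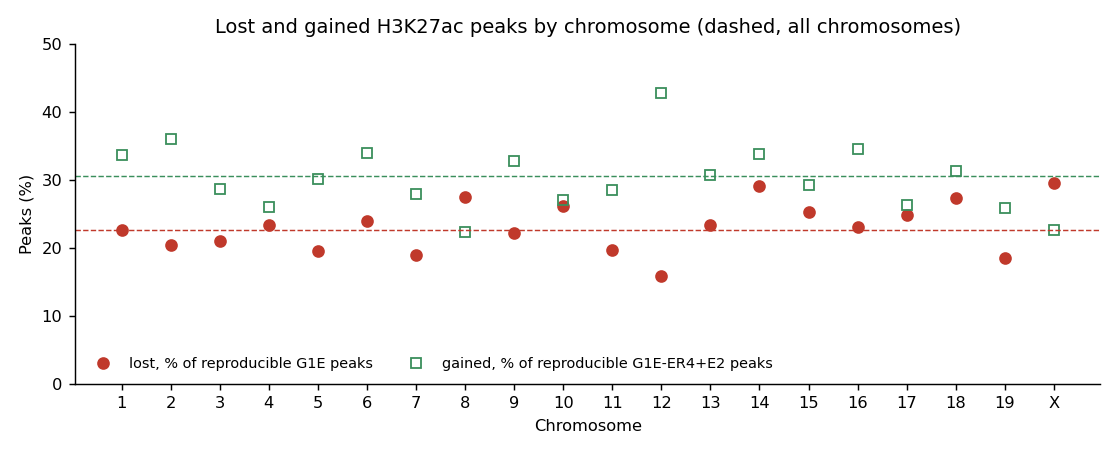
Share (%) of reproducible G1E peaks lost (red circles) and of reproducible G1E-ER4+E2 peaks gained (green squares) on each chromosome, with dashed lines at 22.7% and 30.6% for all chromosomes. Chromosome 12 has the lowest circle (15.9%) and the highest square (42.8%), and on chromosomes 8 and X the circle lies above the square.

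Enrichment itself differed between chromosomes. Lost peaks of chromosome X had a median of 10.6 against 4.79 for those of chromosomes 1 to 19, with 9.42 against 4.56 in replicate 1 and 12.3 against 5.54 in replicate 2. Kept peaks showed the same offset, 20.8 against 8.87, as did the pooled G1E-ER4+E2 list, 7.51 against 2.75. Of the 100 most enriched lost peaks, 21 were on X, against 57 of the 100 most enriched kept peaks and 54 of the 100 most enriched pooled G1E peaks. Chromosome X held 3.83% of the lost, 2.69% of the kept and 2.82% of the pooled peaks. Chromosomes 1 and 12 had the lowest medians among lost peaks, 3.44 and 3.34, and low medians among kept peaks, 6.18 and 5.58. With 3 classes of enrichment of equal size set within the X chromosome, 54.8%, 27.4% and 6.42% of its peaks were lost from the lowest class to the highest. Within chromosomes 1 to 19 the shares were 37.1%, 22.8% and 7.64%. The rank of a lost peak in the whole list thus depends on its chromosome, and why enrichment differed between chromosomes was not tested.

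A lost peak was followed by another lost peak more often than a kept peak was. After a lost peak, the next reproducible peak on the chromosome was lost in 39.9% of cases (1714 of 4298), and after a kept peak in 17.6% (2581 of 14663), against 22.7% overall. Neighbouring peaks are not independent, and a domain that the caller splits counts as several. In the pooled G1E list, 2061 lost peaks stood alone and 2247 (52.2%) formed 854 runs of at least 2 neighbouring peaks that were all lost. There were 48 runs of 5 or more. With peaks joined across gaps of up to 50 kb, 46.5% of the lost peaks were in groups of 2 or more and 23.1% in groups of 3 or more, the largest having 9.

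The longest run was far longer than the others. It held 34 neighbouring lost peaks over 2323.8 kb at chr14:42180201-44504000. Its peaks were small, from 1000 to 3600 bp with a median of 1900 bp, and together they covered 67.8 kb. The gaps between them ran from 1.8 to 151.2 kb with a median of 67.6 kb. Pooled enrichment ran from 2.93 to 17.6 with a median of 7.73, above the median of 4.92 of all lost peaks. The medians in the replicates were 7.01 and 9.15, and each replicate list had 35 peaks in the span. G1E-ER4+E2 cells had 1 peak there, in replicate 1 only, 2200 bp wide with an enrichment of 1.50 and 10 kb from the nearest lost peak.

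The run sat in a wider stretch of 3.33 Mb with no peak in the pooled G1E-ER4+E2 list, at chr14:41841201-45166400. It held 44 lost peaks, which is 21.1% of those of chromosome 14. The stretch was delimited by the lack of pooled G1E-ER4+E2 peaks, which the rule for lost peaks also uses, so that its reproducible G1E peaks were lost follows nearly from its definition. Whether reads from near-identical sequence contribute to peaks in this stretch was not tested, since no mm9 sequence was used.

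Runs of 9 lost peaks occurred on 2 chromosomes. The run at chr18:70103601-70232400 packed its peaks into 128.8 kb, of which they covered 57 kb, with gaps of at most 27.4 kb, and it was also the leading group at the 50 kb limit. Its pooled enrichments ran from 2.47 to 17.8 with a median of 5.75, and the medians in the replicates were 4.80 and 7.82. No G1E-ER4+E2 peak lay within 280.2 kb. The run at chr2:42156401-43802400 was sparse by comparison, with 25.4 kb of peaks in 1646 kb, a median enrichment of 4.99 and a G1E-ER4+E2 peak 38.6 kb away.

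Of the other leading groups, that at chr15:95506801-95715800 had 9 lost peaks in 209 kb, with a median enrichment of 5.08 and 1 further pooled G1E peak that was not in both replicates. Its nearest G1E-ER4+E2 peak was 12.6 kb away. The group at chr10:44257401-44483200 had 7 lost peaks in 225.8 kb. Its enrichments were high throughout, from 7.38 to 18.5 with a median of 11.9, and the medians in the replicates were 15.1 and 16.5. A G1E-ER4+E2 peak lay 6.8 kb from one of its members, and none lay between them.

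The lost peaks ranged from the edges of called G1E-ER4+E2 peaks to long stretches with no called peak. The distance to the nearest peak of any G1E-ER4+E2 list had a median of 26 kb, with quartiles of 7.8 and 94.2 kb. It was at most 1 kb for 162 peaks (3.76%), at most 10 kb for 1272 (29.5%) and over 100 kb for 1034 (24.0%). Peaks farther away had the higher median enrichment, given as a description only, since the distances come from the lists that the rule used. The median was 3.96 up to 10 kb, 4.91 from 10 to 100 kb and 6.43 beyond 100 kb, with 3.92, 4.60 and 5.96 in replicate 1 and 4.61, 5.69 and 7.70 in replicate 2. Widths hardly moved, with medians of 2800, 2800 and 3000 bp. The part of chromosome in the difference in enrichment was not tested.

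The most isolated lost peak was chrX:115683601-115684200, 600 bp wide, with enrichments of 8.31, 12.9 and 11.7 in replicate 1, replicate 2 and the pooled list. Its nearest G1E-ER4+E2 peak was 2873.8 kb away and its nearest kept G1E peak 5041.6 kb away. At chr14:83627401-83636800, 9400 bp wide with an enrichment of 9.32, the distance was 2600.6 kb. At chr19:50344601-50350200, 5600 bp wide with an enrichment of 10.1, it was 2349.6 kb.

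Gained peaks near lost and kept peaks are given as a description only, since gained peaks are G1E-ER4+E2 peaks and the rule sorted lost from kept peaks by such peaks. A gained peak lay within 10 kb of 3.85% of the lost and 16.8% of the kept peaks, and within 100 kb of 33.0% and 65.4%. The median distance from a lost peak to a kept G1E peak was 33.6 kb. Gained peaks were wider than lost ones, with a median of 4400 against 2800 bp, and lay closer to peaks of the other cell line, with a median distance of 11.4 against 26 kb. Their median enrichment was 2.37 in their own pooled list, whose median was 2.80, and they ranked above 37.8% of it where lost peaks ranked above 44.4% of theirs. The lists were called separately and G1E-ER4+E2 peaks cover more of the genome, so the widths and distances are given side by side and were not tested.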

How the data were processed

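H3K27ac ChIP-seq peaks were analysed for 2 G1E and 2 G1E-ER4+E2 samples. The authors deposited 6 broad peak lists (mm9), 1 per replicate and 1 per cell line with replicates pooled. Per the labels, the submitters' processing notes name bcl2fastq 1.8.4, Bowtie 1.0.0 and SICER 1.1. The control and the settings are not given in the sources used here, nor is how replicates were pooled. The deposited enrichment is a ratio (fold) on a linear scale, and each peak has a deposited p-value and q-value, all q-values being at most 0.01. Borders fall on 200 bp windows. Starts are printed 1-based. The depth is unknown.

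Lost and kept peaks were counted with Python 3.11.15, NumPy 2.4.6, pandas 2.3.3 and SciPy 1.17.1, and plotted with Matplotlib 3.10.9. Overlap, coverage and distance were tested on simulated data and were right for all 600 simulated peaks. Where several replicate peaks overlapped a lost peak, the highest enrichment is given. The members and lists were chosen with earlier results of these data known, and no test was run. Named regions were the 10 with the highest enrichment, the 5 widest, the 3 longest runs, the 3 groups with most members, the 3 farthest from a G1E-ER4+E2 peak, and those over or nearest to a tested segment within 100 kb. Segment positions and primers came from the study's complete supplementary lists. Its full TAL1 site list, and gene lists that need an mm9 annotation, were not used here.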

Additional observations from a re-analysis of the deposited data

How the results depend on the processing

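No paired analysis was possible because the results come from no test. The number of lost peaks stayed within 1.5 times 4308 in all alternatives except the limit to peaks from the median enrichment of the pooled G1E list upward, which left 1718 lost peaks by construction, 14.4% of the reproducible peaks within that limit, with a median enrichment of 8.71 rather than 4.92. Counting a peak as lost when under 50% of it was covered in each G1E-ER4+E2 list raised the share from 22.7% to 29.1%, the median width from 2800 to 3400 bp and the median enrichment to 5.42. Leaving out 1 replicate of either cell line gave from 4805 to 5698 lost peaks and shares from 23.7% to 26.6%, and without G1E replicate 1 the median enrichment was 4.33. Without chromosome X, without the longest run, and with supporting replicate peaks free of G1E-ER4+E2 peaks, alternatives added after seeing the data, the share was 22.5%, 22.6% and 22.3%. The share of lost peaks in groups was 33.8% with gaps of up to 25 kb and 60.0% with 100 kb. The 6332 gained peaks stayed within 1.5 times their number in the 8 alternatives run for them, which did not include the limit on enrichment. Replicates of 2, unknown depth and a peak caller's threshold limit these values, since absence from a list is not a measured level.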
